A study of Mus musculus with 13 samples.

Results

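The 9 genes described here encode the enzymes that interconvert fructose 6-phosphate and fructose 1,6-bisphosphate and those that set the level of their shared regulator, fructose 2,6-bisphosphate. They are the fructose bisphosphatases Fbp1 and Fbp2, the phosphofructokinases Pfkm, Pfkl and Pfkp, and the bifunctional enzymes Pfkfb1, Pfkfb2, Pfkfb3 and Pfkfb4, 9 of the 24061 gene symbols counted in each library. All 9 symbols were found in the files. The set was drawn up with results of these hearts in view: Fbp2 was already known to be lower in E3A/E3A than in WT/WT hearts, so its values in that contrast are given as a description, without a test. The genes themselves were chosen by name as enzymes of this step, and the set was selected on the measured level of Fbp2 in that contrast.

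Polyadenylated RNA had been sequenced from hearts of male C57BL/6N mice aged 13 weeks on chow diet, 1 library per heart. The 3 genotypes of Cpt1b were E3A/E3A (5 hearts), WT/E3A (4 hearts) and WT/WT (4 hearts). Cpt1b encodes the muscle form of carnitine palmitoyltransferase 1, which admits long-chain fatty acids to mitochondria, and the E3A change lowers its sensitivity to the inhibitor malonyl-CoA. Strain, sex, age and diet were shared by all groups, and the labels give neither litters nor the meaning of the title prefixes C2, C3, C4 and C6.

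Phosphofructokinase phosphorylates fructose 6-phosphate and commits it to glycolysis, and fructose bisphosphatase removes that phosphate again, a step of gluconeogenesis. The PFKFB enzymes carry a kinase and a phosphatase in 1 protein and so make and break down fructose 2,6-bisphosphate, which activates phosphofructokinase and inhibits fructose bisphosphatase. The heart uses the isoforms FBP2, PFKM and PFKFB2 above the others, whereas FBP1 is the form of liver and kidney.

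Depth ran from 20.1 to 52.6 M counted reads per library. The labels describe 4 libraries as potential outliers (E3A/E3A replicates 1 and 2, WT/E3A replicate 1 and WT/WT replicate 1), and the genotypes were compared over all 13 libraries and over the other 9, which hold 3 of each genotype. Those 4 stood apart: Myh6, the cardiac myosin heavy chain, took 6.59 to 9.49% of their reads against 3.90 to 4.61% in the other 9. The biological coefficient of variation estimated by edgeR was 28.9% with the 13 libraries and 7.85% with the 9. All 10 cardiomyocyte markers were present in the files and had reads, and their summed level was 153100 to 222100 CPM in the 4 libraries and 101400 to 115500 CPM in the other 9. These markers did not move together. Myh6, Tnnt2, Tnni3, Myl3 and Mybpc3 were higher in the 4 than in all the other 9. Pln was lower, at 789 to 2484 CPM against 5792 to 6564 CPM, and Actc1, Myl2, Ryr2 and Atp2a2 overlapped. CPM denotes counts scaled to library size by TMM over the 13 libraries.

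Fbp1 and Fbp2 are neighbours on the minus strand of chromosome 13 (GRCm38.p6, chr13:62864753-62888298 and chr13:62836884-62858400), separated by 6353 bases. The 250 bases before the annotated start of each are shown from RefSeq, on the coding strand, because the pair sits side by side and Fbp2 is the member the set was selected on. The window of Fbp2 is chr13:62858401-62858650 and that of Fbp1 is chr13:62888283-62888532, and capitals mark the E-box CACGTG.
Fbp2: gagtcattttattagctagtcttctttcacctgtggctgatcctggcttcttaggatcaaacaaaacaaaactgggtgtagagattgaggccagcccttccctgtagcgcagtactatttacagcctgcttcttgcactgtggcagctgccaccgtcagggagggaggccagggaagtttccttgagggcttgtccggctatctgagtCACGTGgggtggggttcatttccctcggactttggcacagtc
Fbp1: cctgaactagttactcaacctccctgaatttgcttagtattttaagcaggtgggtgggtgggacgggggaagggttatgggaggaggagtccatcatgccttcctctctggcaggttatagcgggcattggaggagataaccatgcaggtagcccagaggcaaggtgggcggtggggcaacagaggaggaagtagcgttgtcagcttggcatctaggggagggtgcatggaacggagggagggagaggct

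Both strands were searched for CACGTG, its core ACGTG, the nuclear receptor element AGGTCA, the TATA element TATAAA and the general E-box CANNTG. The Fbp2 window held 1 CACGTG, which began 42 bases before the start, and 2 matches of ACGTG, both within that E-box. It also held 3 matches of CANNTG, that E-box among them, and no match of the other motifs. The Fbp1 window held 1 CANNTG and none of the other motifs. Among 32851 windows of the same length from 27025 genes, CACGTG was found in 6.02%, ACGTG in 16.6%, AGGTCA in 14%, TATAAA in 12.4% and CANNTG in 66.2%. Pfkm, Pfkfb2 and Pfkfb3 also had CACGTG in 1 of their 4, 3 and 2 windows.

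Per kilobase of exon, so that genes of different length can be set side by side, the 9 genes spanned a wide range of levels over the 9 libraries without a note (mean ± SD, n = 9). Pfkm was far above the rest at 482 ± 17 CPM per kb. Pfkfb2 at 49.9 ± 8.79 and Pfkl at 49.7 ± 3.65 CPM per kb came next and did not differ beyond their spread. Pfkp stood at 16.3 ± 0.599 CPM per kb in all 9, whereas Fbp2 averaged 10.6 ± 1.35 CPM per kb in E3A/E3A, 15.8 ± 1.17 CPM per kb in WT/E3A and 21.7 ± 2.49 CPM per kb in WT/WT (SD, n = 3 each). Fbp2 thus lay below Pfkp in E3A/E3A hearts and above it in WT/WT hearts. Pfkfb1 followed at 7.92 ± 1.02, Pfkfb3 at 2.06 ± 0.207, Pfkfb4 at 1.43 ± 0.152 and Fbp1 at 0.209 ± 0.179 CPM per kb.

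Fbp2, the muscle fructose bisphosphatase, was the member on which the set was selected, and its level followed genotype. It measured 18.4, 17.5, 15.7, 14.98 and 12.3 CPM in E3A/E3A replicates 1 to 5, against 25.9, 19.5, 22.5 and 22.1 CPM in WT/E3A replicates 1 to 4 and 39.2, 26.2, 32.9 and 29.1 CPM in WT/WT replicates 1 to 4. The genotypes did not overlap: every E3A/E3A heart was below every WT/E3A heart, and these were below every WT/WT heart. Means were 15.8 ± 2.39 CPM in E3A/E3A (SD, n = 5), 22.5 ± 2.62 CPM in WT/E3A (SD, n = 4) and 31.9 ± 5.63 CPM in WT/WT (SD, n = 4). In the 9 libraries they were 14.3 ± 1.82 CPM in E3A/E3A, 21.4 ± 1.59 CPM in WT/E3A and 29.4 ± 3.37 CPM in WT/WT (SD, n = 3 each).

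**Figure D1:**
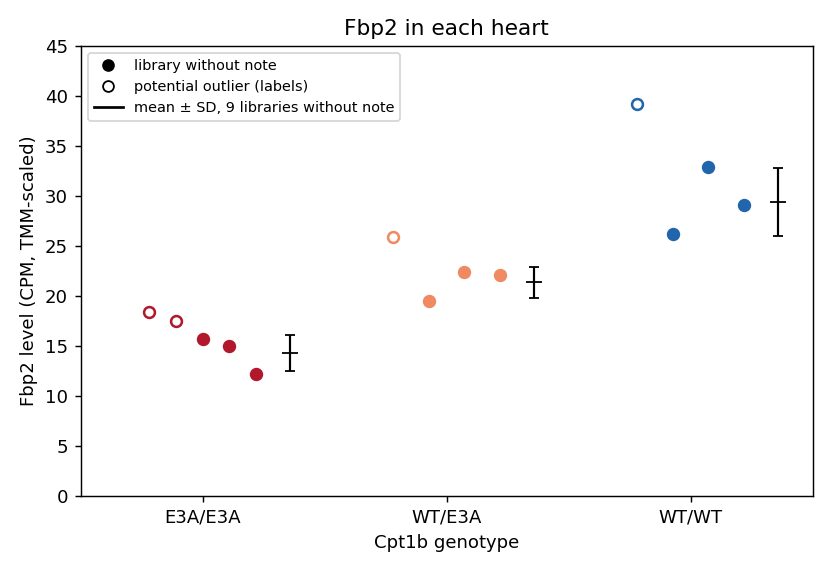
Level of Fbp2 (CPM, vertical axis from 0) in each heart by Cpt1b genotype. Filled points are libraries without a note, open points the 4 that the labels describe as potential outliers, and bars are mean ± SD of the 9 libraries without a note; the E3A/E3A hearts lie between 12.3 and 18.4 CPM, WT/E3A between 19.5 and 25.9 CPM and WT/WT between 26.2 and 39.2 CPM.

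Among all tested genes, the share with every E3A/E3A heart below every WT/WT heart was 0.563% with 13 libraries and 6.96% with 9. The share with every WT/E3A heart below every WT/WT heart was 0.542% and 6.28%, and that with every E3A/E3A heart below every WT/E3A heart was 0.487% and 5.53%. Fbp2 met all 3 conditions in both library sets. With 13 libraries, 3 of 14387 genes (0.0209%) showed E3A/E3A below WT/E3A below WT/WT without overlap, namely Alox5 (5-lipoxygenase), Fah (fumarylacetoacetase) and Fbp2. With 9 libraries, 40 of 14373 genes (0.278%) did so, Fbp2 among them. The E3A/E3A to WT/WT end of this ordering was known when the genes were chosen, so the counts describe how Fbp2 ranks and carry no test.

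The fitted log2 fold change of Fbp2 in E3A/E3A against WT/WT was -1.01 (SE 0.149) with 13 libraries and -1.03 (SE 0.101) with 9. Across all genes, 39 of 14373 (0.271%) were called at an adjusted p under 0.05 in this contrast with 9 libraries, 31 of them lower in E3A/E3A (0.216%), and 1 of 14387 (0.00695%) with 13 libraries. Because Fbp2 was selected on this contrast, nothing is read from its place among them. In WT/E3A against WT/WT Fbp2 differed by a log2 fold change of -0.50 (SE 0.158, edgeR adjusted p = 1) with 13 libraries and -0.45 (SE 0.0999, edgeR adjusted p = 0.515) with 9. In E3A/E3A against WT/E3A it was -0.51 (SE 0.149, edgeR adjusted p = 1) and -0.57 (SE 0.104, edgeR adjusted p = 0.128). Neither step with a single allele passed the edgeR threshold, although the hearts did not overlap. Each step shares hearts with the contrast on which Fbp2 was selected, and together the steps make up that contrast. Their p-values, by any method, are therefore not independent of the selection. DESeq2 on the 9 libraries called both steps, with adjusted p = 0.0338 for the step to WT/E3A and 0.000528 for the step on to E3A/E3A. Of all 14373 genes, DESeq2 called 19 in the step to WT/E3A and 38 in the step on to E3A/E3A.

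Genes called in the single-allele steps numbered 0 of 14387 with 13 libraries for both (0.0%). There edgeR gave an unadjusted p under 0.05 to 117 genes in the step to WT/E3A and to 208 in the step on to E3A/E3A. Both numbers are below the share of 0.05 that genes without any difference would give. A high adjusted p with 13 libraries therefore does not show equal levels. With 9 libraries edgeR called 3 of 14373 (0.0209%) and 6 of 14373 (0.0417%), and 914 and 993 genes had an unadjusted p under 0.05. Values within a title prefix rest on a single heart of 1 or both genotypes and are given without a test. On the log2 CPM scale Fbp2 in E3A/E3A minus WT/WT was -1.13 in C2 and -0.92 in C3, with 2 E3A/E3A hearts and 1 WT/WT heart in each. WT/E3A minus WT/WT was -0.42 in C3, 1 heart against 1. E3A/E3A minus WT/E3A was -0.49 in C3, 2 hearts against 1, and -0.65 in C4, 1 heart against 3. C6 holds WT/WT hearts only.

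Markers of skeletal muscle, a tissue that also expresses Fbp2, were summed over 12 genes, all with reads. Mybpc2 (19.9 to 74.1 CPM) and Casq1 (14.3 to 31.6 CPM) gave most of the sum. Actn3, Myh1, Myh2 and Myh4 lay between 0 and 0.37 CPM in every heart. The sum was 47.1 to 88.8 CPM in E3A/E3A, 42.2 to 111.2 CPM in WT/E3A and 38.0 to 83.4 CPM in WT/WT hearts, with medians of 51.7 CPM in E3A/E3A, 47.2 CPM in WT/E3A and 44.4 CPM in WT/WT. In the 4 libraries noted as potential outliers the sum was 76.2 to 111.2 CPM, and in the other 9 it was 38.0 to 51.7 CPM. The genotype ranges overlapped. Over the 9 libraries without a note, the log2 values of this sum and of Fbp2 had r = -0.823 (rho = -0.817), given without a test. The part of skeletal muscle RNA in the Fbp2 values was not tested. In whole-heart RNA fewer cells of a type and less RNA per cell cannot be told apart.

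Genes with the pattern most like that of Fbp2 were found by Pearson r of log2 CPM over the 9 libraries, among 12619 genes with a mean of at least 1 CPM. The 5 closest were Acat1 (r = 0.992, rho = 0.983), 4632428C04Rik, a gene without a named function, (r = 0.985, rho = 0.983), Hadha (r = 0.984, rho = 0.967), Decr1 (r = 0.981, rho = 0.983) and Etfdh (r = 0.977, rho = 0.983). Acat1 encodes mitochondrial acetoacetyl-CoA thiolase, Hadha the alpha subunit of the trifunctional protein of beta-oxidation, Decr1 the dienoyl-CoA reductase for unsaturated fatty acids and Etfdh the oxidoreductase that passes their electrons to ubiquinone. These r values are the highest of 12619 and rest on 9 hearts that share the 3 genotype groups, so they are descriptions without a p.

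In E3A/E3A against WT/WT with 9 libraries the log2 fold change stood at -0.17 (SE 0.043) for Acat1, -0.33 (SE 0.076) for 4632428C04Rik, -0.30 (SE 0.045) for Hadha, -0.46 (SE 0.053) for Decr1 and -0.24 (SE 0.044) for Etfdh, and -1.03 (SE 0.101) for Fbp2. In the 4 libraries noted as potential outliers these genes did not all go with Fbp2. Acat1 stood at 515.5, 531.3, 378.7 and 424.0 CPM in E3A/E3A replicates 1 and 2, WT/E3A replicate 1 and WT/WT replicate 1, below all 9 other hearts (633.9 to 750.3 CPM), whereas Fbp2 in each of those libraries was higher than in the hearts of its genotype without the note. Etfdh, at 430.6 to 543.8 CPM in the 4, was likewise below all 9 other hearts. Hadha went with Fbp2, at 1769 and 1873 CPM in E3A/E3A replicates 1 and 2, 1951 CPM in WT/E3A replicate 1 and 2119 CPM in WT/WT replicate 1, each above the hearts of its genotype without the note. Decr1 and 4632428C04Rik were mixed: both were below the genotype's other hearts in WT/E3A replicate 1 and WT/WT replicate 1, whereas in E3A/E3A replicate 2 both were above the other E3A/E3A hearts.

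**Figure D2:**
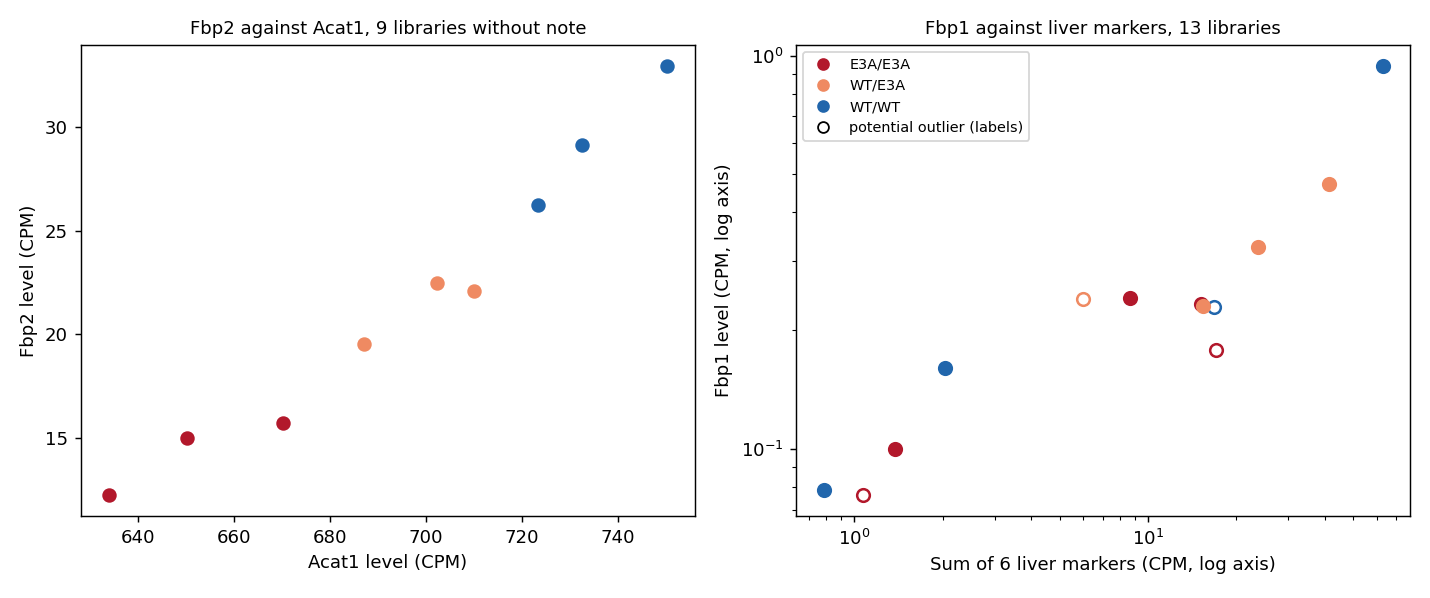
Left, Fbp2 against Acat1 (both CPM) in the 9 libraries without a note, with r = 0.992. Right, Fbp1 against the sum of 6 liver markers (both CPM, log axes) in 13 libraries; points are hearts coloured by genotype, open points those noted as potential outliers, and the highest Fbp1 (0.940 CPM) lies at the highest liver sum (62.9 CPM).

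Fbp1, the liver and kidney isoform, was close to the counting limit. It had 3, 4, 4, 8 and 6 reads in E3A/E3A replicates 1 to 5, against 7, 10, 8 and 8 in WT/E3A replicates 1 to 4 and 10, 41, 2 and 7 in WT/WT replicates 1 to 4. The groups overlapped, and 1 heart, WT/WT replicate 2, held the highest value of 0.940 CPM. Fbp1 did not pass the low-count filter with 13 libraries. With 9 it did, with a log2 fold change of -1.19 (SE 0.82, edgeR adjusted p = 0.827) in E3A/E3A against WT/WT. That pass rested on WT/WT replicate 2: without this heart Fbp1 did not pass, and 8 members were tested. Markers of liver (6 genes, all with reads) summed to 62.9 CPM in WT/WT replicate 2, of which Alb gave 41.7 CPM, to 41.3 CPM in WT/E3A replicate 2 and to 0.787 CPM in WT/WT replicate 3, where Fbp1 was 0.0787 CPM. The part of this liver RNA in the Fbp1 values was not tested. The closest genes in pattern were Cyp2e1 (r = 0.941), Pzp (r = 0.941) and Apoa2 (r = 0.935), all known from liver; Cyp2e1 is among the 6 markers.

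The 3 phosphofructokinase genes did not differ detectably between genotypes. Pfkm (chr15:98092589-98132447), the muscle subunit, had 2363, 2112, 1435, 1472 and 1457 CPM in E3A/E3A replicates 1 to 5, against 2717, 1471, 1336 and 1516 CPM in WT/E3A replicates 1 to 4 and 2634, 1405, 1452 and 1465 CPM in WT/WT replicates 1 to 4. The libraries noted as potential outliers were the high ones in each genotype, and the others lay within 1336 to 1516 CPM. Pfkm in E3A/E3A hearts differed from WT/WT by 0.024 on the log2 scale (SE 0.267, edgeR adjusted p = 1) with 13 libraries and 0.014 (SE 0.050, edgeR adjusted p = 0.979) with 9. Against WT/E3A the E3A/E3A hearts differed by 0.0064 (SE 0.267, edgeR adjusted p = 1) with 13 and 0.014 (SE 0.050, edgeR adjusted p = 0.973) with 9. The closest genes in pattern over the 9 libraries were Rps29 (r = 0.967), Ndufs7 (r = 0.966) and Rplp0 (r = 0.965), 2 ribosomal protein genes and a complex I subunit gene. Pfkm lies 8.67 Mb from Cpt1b on chromosome 15, the nearest member to the edited gene.

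Pfkl (chr10:77986947-78009807), the liver-type subunit, averaged 184.5 ± 15.4 CPM in E3A/E3A, 188 ± 20.9 CPM in WT/E3A and 183 ± 6.90 CPM in WT/WT (SD, n = 3 each, 9 libraries). In the 4 noted libraries it ranged from 275.7 to 431.3 CPM. Pfkp (chr13:6579874-6649060), the platelet-type subunit, averaged 70.6 ± 3.80 CPM in E3A/E3A, 69.6 ± 2.62 CPM in WT/E3A and 69.8 ± 2.09 CPM in WT/WT (SD, n = 3 each, 9 libraries), and 90.5 to 103.7 CPM in the noted ones. The closest genes in pattern were Cyhr1 (r = 0.97), Calm3 (r = 0.946) and Txn2 (r = 0.946) for Pfkl, and Dhrs3 (r = 0.913), Rbm4 (r = 0.905) and Ism1 (r = 0.899) for Pfkp. Neither was called in any comparison: with 9 libraries E3A/E3A hearts differed from WT/WT by 0.01 on the log2 scale (SE 0.078, edgeR adjusted p = 0.991) for Pfkl and by 0.016 (SE 0.053, edgeR adjusted p = 0.978) for Pfkp. With 13 libraries they differed by -0.077 (SE 0.348, edgeR adjusted p = 1) for Pfkl and by 0.11 (SE 0.155, edgeR adjusted p = 1) for Pfkp.

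Per kilobase of exon, Pfkm supplied most phosphofructokinase transcript. The sum of Pfkm, Pfkl and Pfkp averaged 551 ± 10.47 CPM per kb in E3A/E3A, 547 ± 37.3 CPM per kb in WT/E3A and 546 ± 12.03 CPM per kb in WT/WT (SD, n = 3 each, 9 libraries). The Pfkm share of it was 88.1 ± 0.537% in E3A/E3A, 87.8 ± 0.341% in WT/E3A and 88.0 ± 0.00894% in WT/WT. In exact two-sided permutation tests the difference of the sum in E3A/E3A against WT/WT had p = 0.968 with 13 libraries (126 splits) and p = 0.6 with 9. With 3 hearts against 3 the smallest p is 0.1, and the adjusted p was 1 and 0.84 over 14 tests in each library set. None of the 14 tests of each set gave an adjusted p under 0.05.

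Fbp2 relative to the phosphofructokinase sum followed genotype as Fbp2 did, and the ratio does not depend on library scaling. Its log2 was -5.83 ± 0.215 in E3A/E3A (SD, n = 5), -5.28 ± 0.353 in WT/E3A (SD, n = 4) and -4.78 ± 0.264 in WT/WT (SD, n = 4). With 9 libraries it was -5.71 ± 0.200 in E3A/E3A, -5.12 ± 0.172 in WT/E3A and -4.66 ± 0.144 in WT/WT (SD, n = 3 each), without overlap between genotypes. With 13 libraries only E3A/E3A and WT/WT did not overlap. The difference of E3A/E3A minus WT/E3A was -0.55 with an exact permutation p = 0.0476 (adjusted p = 0.4 over 14 tests), and WT/E3A minus WT/WT was -0.50 with an exact permutation p = 0.0571 (adjusted p = 0.4). With 9 libraries both had an exact permutation p = 0.1, the smallest the design allows. The p of 0.0476 was lost in 8 of 9 cases when 1 library was left out, with p between 0.0571 and 0.107. Both steps share hearts with the contrast on which Fbp2 was selected, so these p-values are not independent of that selection.

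**Figure D3:**
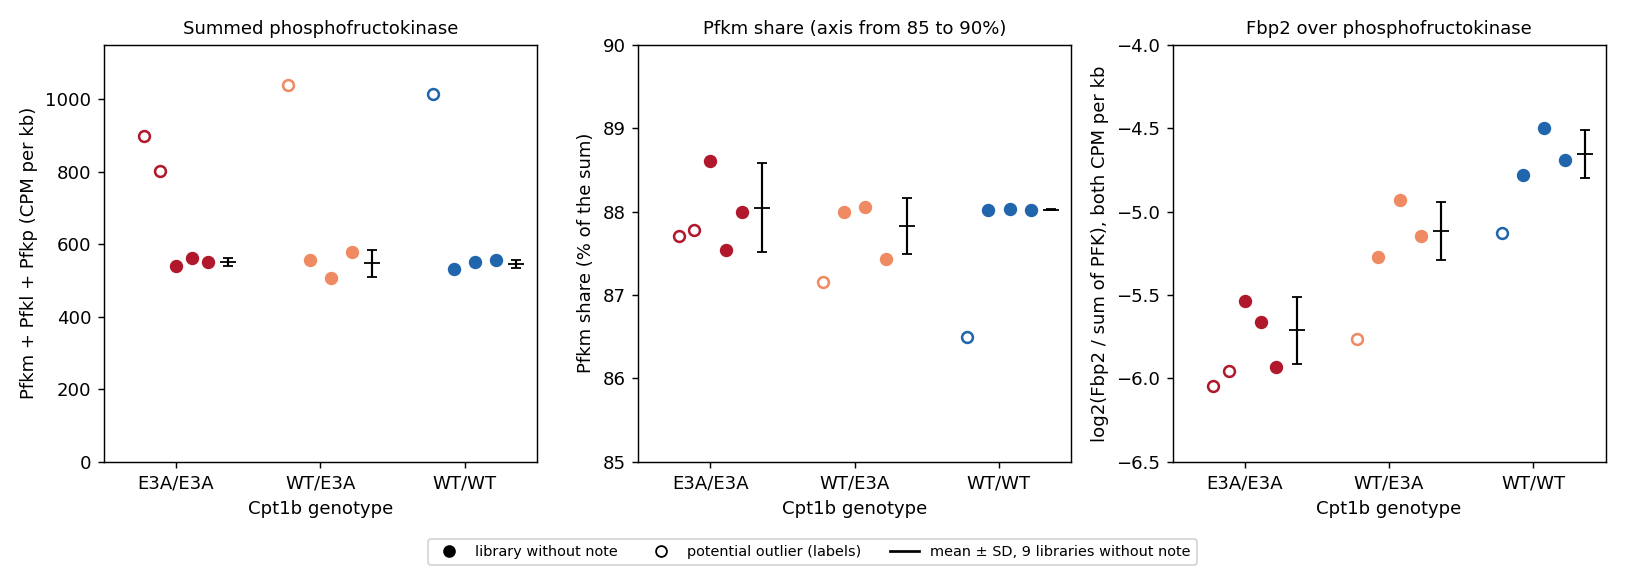
Sum of Pfkm, Pfkl and Pfkp (CPM per kb), Pfkm share of that sum (percent, axis from 85 to 90%) and log2 of Fbp2 over that sum, in each heart by genotype. Symbols are as in the plot of Fbp2; the sum lies near 550 CPM per kb in the libraries without a note (means 546 to 551) and the ratio is lowest in E3A/E3A and highest in WT/WT hearts there.

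Pfkfb2 (chr1:130689043-130729253), the isoform of heart, was the main PFKFB transcript. It measured 166, 266, 194, 285 and 313 CPM in E3A/E3A replicates 1 to 5, against 180, 198, 283 and 292 CPM in WT/E3A replicates 1 to 4 and 148, 241, 211 and 242 CPM in WT/WT replicates 1 to 4. The groups overlapped throughout. Pfkfb2 in E3A/E3A against WT/WT with 9 libraries showed 0.19 on the log2 scale (SE 0.222, edgeR adjusted p = 0.928), and with 13 it showed 0.22 (SE 0.227, edgeR adjusted p = 1). Per kilobase Pfkfb2 made up 83.2 ± 4.27% of the PFKFB sum in E3A/E3A (SD, n = 5), 82.1 ± 2.17% in WT/E3A (SD, n = 4) and 79.3 ± 1.72% in WT/WT (SD, n = 4). The exact permutation p was 0.143 (adjusted p = 0.5) between E3A/E3A and WT/WT and 0.0857 (adjusted p = 0.4) between WT/E3A and WT/WT. With 9 libraries the exact permutation p was 0.3 and 0.2, each with an adjusted p of 0.84. Its closest genes in pattern were Nr4a3 (r = 0.969), Jmy (r = 0.961) and Impact (r = 0.957).

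Pfkfb1 (chrX:150587445-150643878), known from liver and skeletal muscle, had 9.21, 8.57, 16.5, 13.0 and 13.8 CPM in E3A/E3A replicates 1 to 5, against 8.33, 14.1, 17.9 and 18.0 CPM in WT/E3A replicates 1 to 4 and 8.36, 15.7, 18.0 and 18.2 CPM in WT/WT replicates 1 to 4. The 4 noted libraries were the lowest, at 8.33 to 9.21 CPM, and the genotypes overlapped. Means in the 9 libraries had the order seen for Fbp2, with 14.4 CPM in E3A/E3A, 16.6 CPM in WT/E3A and 17.3 CPM in WT/WT. Over those 9 hearts Pfkfb1 and Fbp2 had r = 0.739 (rho = 0.75), given without a test. Within title prefixes the order of Pfkfb1 did not hold throughout. On the log2 CPM scale E3A/E3A minus WT/WT was 0.088 in C2 and -0.06 in C3. E3A/E3A minus WT/E3A was 0.098 in C3 and -0.099 in C4, and WT/E3A minus WT/WT was -0.158 in C3. In E3A/E3A against WT/WT with 9 libraries Pfkfb1 showed -0.26 on the log2 scale (SE 0.110, edgeR adjusted p = 0.608), the smallest adjusted p of the 8 members other than Fbp2 there. With 13 libraries it showed -0.30 (SE 0.288, edgeR adjusted p = 1). Its closest genes in pattern were Tbl1xr1 (r = 0.937), Nhlrc3 (r = 0.936) and Pik3ip1 (r = 0.926).

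Pfkfb3 (chr2:11471430-11554071), the inducible isoform with high kinase activity, and Pfkfb4 (chr9:108988272-109032236), known from testis, were low. Pfkfb3 averaged 10.5 ± 1.37 CPM in E3A/E3A (SD, n = 5), 10.6 ± 2.60 CPM in WT/E3A (SD, n = 4) and 10.6 ± 1.71 CPM in WT/WT (SD, n = 4). Pfkfb4 averaged 5.40 ± 0.575 CPM in E3A/E3A (SD, n = 5), 4.52 ± 0.673 CPM in WT/E3A (SD, n = 4) and 5.55 ± 0.802 CPM in WT/WT (SD, n = 4). Neither was called. The closest genes in pattern were Ercc3 (r = 0.948), Gpr89 (r = 0.923) and Adam9 (r = 0.915) for Pfkfb3, and Lrp12 (r = 0.97), 4833420G17Rik (r = 0.961) and Rap2a (r = 0.961) for Pfkfb4. On the log2 scale Pfkfb4 showed 0.26 (SE 0.141, edgeR adjusted p = 1) in E3A/E3A against WT/E3A and -0.30 (SE 0.148, edgeR adjusted p = 1) in WT/E3A against WT/WT with 13 libraries. With 9 libraries these were 0.12 (SE 0.133, edgeR adjusted p = 0.884) and -0.14 (SE 0.131, edgeR adjusted p = 0.887). Pfkfb3 in E3A/E3A against WT/WT showed -0.018 (SE 0.182, edgeR adjusted p = 1) with 13 libraries and -0.071 (SE 0.108, edgeR adjusted p = 0.939) with 9.

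**Figure D4:**
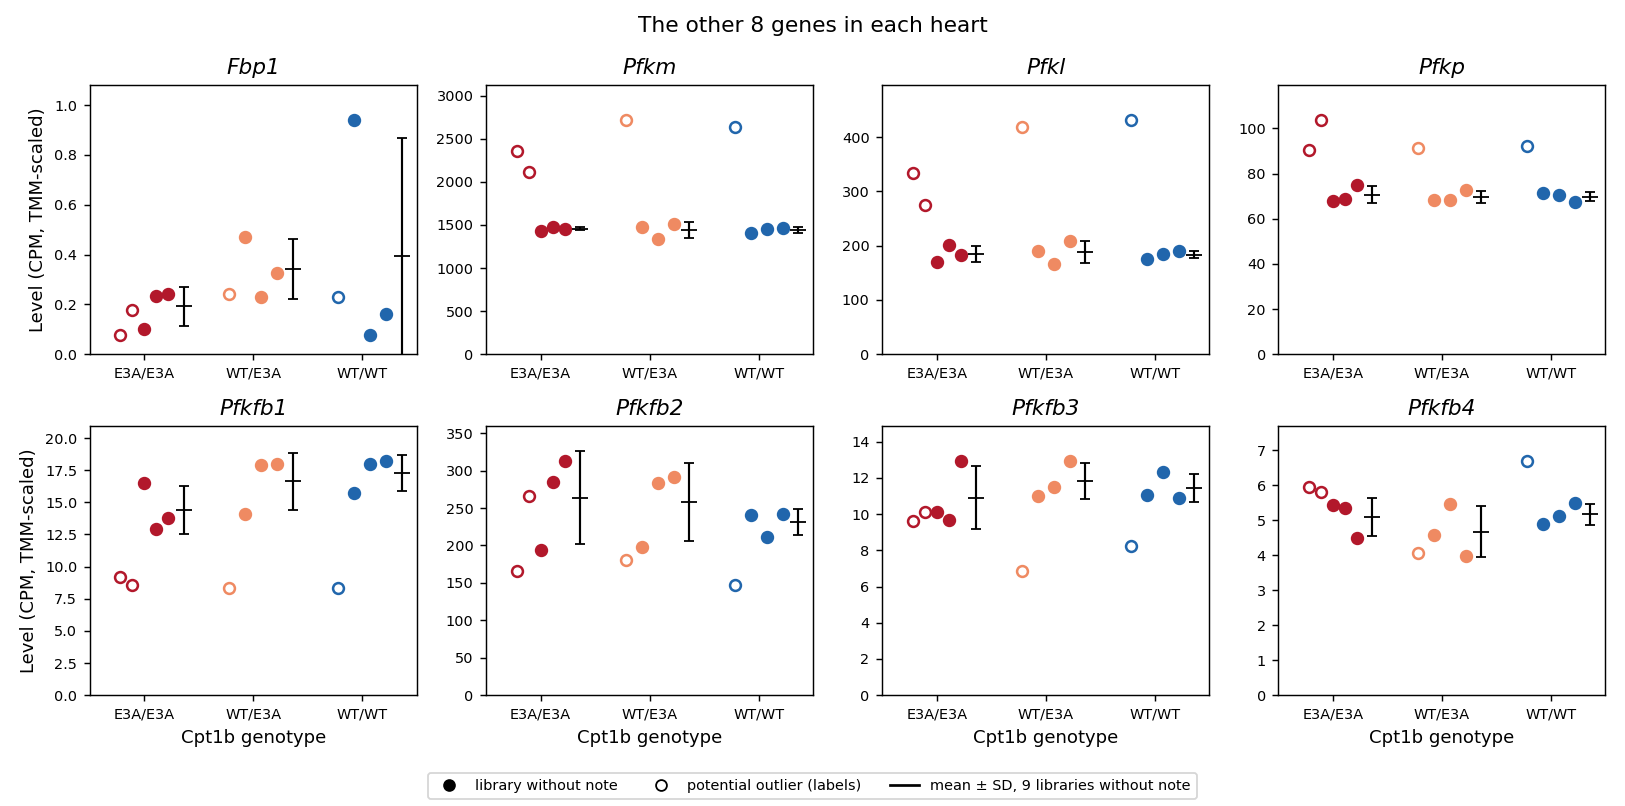
Level (CPM, vertical axes from 0, each panel with its own scale) of the other 8 genes in each heart by genotype, with symbols as in the plot of Fbp2. The open points of Pfkm, Pfkl and Pfkp lie above the filled ones and those of Pfkfb1 below them, in all genotypes.

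The libraries noted as potential outliers stood apart in most members. In a fit with genotype and the note, the log2 ratio of noted over other libraries was 0.99 for Pfkl, 0.77 for Pfkm, 0.42 for Pfkp, 0.34 for Fbp2 and 0.15 for Pfkfb4. It was -0.88 for Pfkfb1, -0.45 for Pfkfb2 and -0.40 for Pfkfb3, and the median over all 14387 genes was -0.021. What set these libraries apart was not tested.

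Over the 8 members other than Fbp2, none was called in any of the 6 comparisons, against a background of 0.0 to 0.271% of all genes. In E3A/E3A against WT/WT with 9 libraries, 4 were higher and 4 lower, with a median log2 fold change of -0.002 beside 0.001 for all genes tested. Fbp1 was among the lower ones, at -1.19. It passed the low-count filter only through the high value of WT/WT replicate 2, so nothing is read from its sign. With 13 libraries 3 of the 7 tested were higher and 4 lower, with a median of -0.018 beside -0.016.

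**Figure D5:**
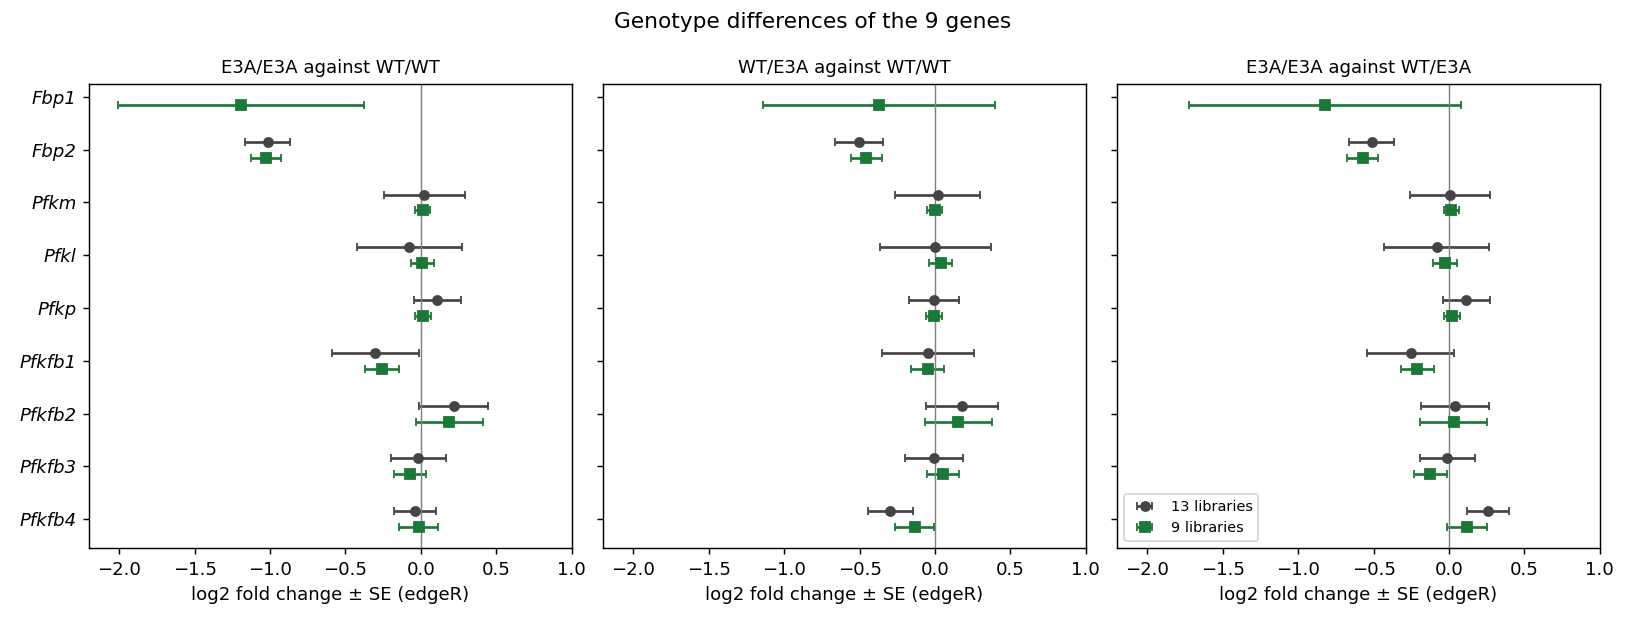
Log2 fold change (edgeR, points, bars ± SE) of the 9 genes in the 3 genotype comparisons, from 13 libraries (circles) and 9 libraries (squares). Fbp2 lies near -1.0 in E3A/E3A against WT/WT and near -0.5 in the other two, the others lie about 0 or carry wide bars, and Fbp1 has values from 9 libraries alone.

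Other genes of the pathway came from lists chosen with the earlier results known. Of 9 tested enzymes that make or use the same sugar phosphates, none was called in any comparison. Of all genes 0.0 to 0.271% were called, so a list this short would hold few called genes or none in any case. Aldoa, the muscle aldolase that splits fructose 1,6-bisphosphate, had a log2 fold change of 0.026 (SE 0.055, edgeR adjusted p = 0.968) in E3A/E3A against WT/WT with 9 libraries, and Gpi1, which makes fructose 6-phosphate, of 0.032 (SE 0.046, edgeR adjusted p = 0.936). The median of the 9 was 0.032, beside 0.001 for all genes, and with 13 libraries it was 0.058 beside -0.016.

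Of 14 tested genes in the rest of glycolysis, none was called, beside 0.0 to 0.271% of all genes. With 9 libraries 13 of them had a positive log2 fold change in E3A/E3A against WT/WT, with a median of 0.053 beside 0.001 for all genes, of which 7268 of 14373 were positive. The smallest adjusted p was 0.23. With 13 libraries 8 of the 14 were positive, with a median of 0.018 beside -0.016. With 9 libraries in that contrast Pkm, pyruvate kinase, had 0.031 (SE 0.056, edgeR adjusted p = 0.958) and Ldhb, the heart lactate dehydrogenase subunit, had -0.065 (SE 0.052, edgeR adjusted p = 0.864). Of 7 tested genes in the rest of gluconeogenesis none was called, with a median of -0.005 beside 0.001 for all genes with 9 libraries and -0.053 beside -0.016 with 13. With 9 libraries in E3A/E3A against WT/WT Mdh1, cytosolic malate dehydrogenase, had -0.005 (SE 0.045, edgeR adjusted p = 0.991) and Gpd1, glycerol 3-phosphate dehydrogenase, had 0.0023 (SE 0.053, edgeR adjusted p = 0.997).

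Targets of HIF-1, a factor known to act on PFKFB3 and PFKFB4, were called in none of 15 tested, beside 0.0 to 0.271% of all genes. With 9 libraries 8 of them were higher and 7 lower in E3A/E3A against WT/WT, with a median log2 fold change of 0.029 beside 0.001 for all genes, and with 13 libraries 5 were higher and 10 lower, with a median of -0.026 beside -0.016. In WT/E3A against WT/WT 12 were higher and 3 lower in both library sets, with medians of 0.14 with 9 and 0.12 with 13, beside -0.001 and -0.002. Of the same 15 in E3A/E3A against WT/E3A 2 were higher and 13 lower with 9 libraries, with a median of -0.084 beside 0.003, and 3 were higher and 12 lower with 13, with a median of -0.16 beside -0.015. These comparisons share the WT/E3A hearts. With 9 libraries in E3A/E3A against WT/WT Vegfa, a growth factor for vessels, had 0.043 (SE 0.0996, edgeR adjusted p = 0.975) and Egln1, a prolyl hydroxylase of HIF, had -0.074 (SE 0.047, edgeR adjusted p = 0.791).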

How the data were processed

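Polyadenylated RNA of 13 mouse hearts had been sequenced as single-end reads. The authors deposited 1 table of raw counts for each heart, by gene symbol. Per the submitters' processing notes, STAR 2.4.0 and featureCounts 1.4.4 were used with mm10 (GRCm38). Strand settings and the treatment of multimapping reads were not stated there.

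The counts were fitted with edgeR 4.0.16 (R 4.3.3) in 1 model of the 3 genotypes, with 13 and with 9 libraries, after filterByExpr and TMM scaling; the test was the robust quasi-likelihood F test. Benjamini-Hochberg adjustment ran over all genes tested, and genes were called at an adjusted p under 0.05. Alternatives used DESeq2 1.42.0, limma 3.58.1 with or without quality weights, a block for the title prefix, a covariate for the outlier note, other scalings and filters, and each library left out. Exact permutation tests (scipy 1.17.1) compared sums and ratios over libraries, on CPM per kb of union exon length. Of the 22 pairs of libraries within a genotype, 0 were identical. P-values measure the spread between these hearts, whose litters the labels do not give. Reads without molecular identifiers are no count of independent RNA molecules.

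The members, gene lists and tests were chosen with earlier results of these data known. All 9 members are named; of each list, called genes, otherwise the 2 with the highest mean CPM; likeness used a prior count of 2. Tigar was matched as 9630033F20Rik, and Ly6g among the cell markers had no match in the files. Promoter sequences and positions are from RefSeq (GRCm38.p6), exon lengths from GENCODE.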

Additional observations from a re-analysis of the deposited data

Results flagged for a closer look

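Within each genotype, the highest and lowest heart was compared with the spread of the others by Dixon's criterion at 95%. Of 42 groups of 4 or 5 hearts, 9 had a value beyond it, where chance gives about 1 in 20, and 8 of these 9 values came from WT/E3A replicate 1 and WT/WT replicate 1, which are noted as potential outliers. The values overlap, since the phosphofructokinase sum and share are built from Pfkm, Pfkl and Pfkp. Pfkm was 2717 CPM in WT/E3A replicate 1, where the other WT/E3A hearts had 1336 to 1516 CPM, and 2634 CPM in WT/WT replicate 1, where the others had 1405 to 1465 CPM. Pfkl was 418.8 CPM in WT/E3A replicate 1 and 431.3 CPM in WT/WT replicate 1, above 166.4 to 207.9 CPM and 175.9 to 189.5 CPM in the others of those genotypes. Pfkp was 92.0 CPM in WT/WT replicate 1, above 67.5 to 71.5 CPM. The phosphofructokinase sum was 1040 CPM per kb in WT/E3A replicate 1 and 1015 CPM per kb in WT/WT replicate 1, and the Pfkm share was 86.5% in WT/WT replicate 1, below 88.0% in the others. The other value came from E3A/E3A replicate 5, with 12.9 CPM of Pfkfb3 above 9.65 to 10.1 CPM in the other E3A/E3A hearts. The criterion compares a single heart with the rest, so a pair of high hearts in a genotype can mask each other. E3A/E3A replicates 1 and 2, also noted as potential outliers, had 2363 and 2112 CPM of Pfkm and were not flagged. E3A/E3A hearts without the note had 1435 to 1472 CPM.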

How the results depend on the processing

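Of 1174 alternatives of values other than counts, 148 changed sign, none of them for Fbp2 (105 alternatives of its log2 fold changes). No sign-changed value of another gene was called, and the cause was not tested. Fbp2 in E3A/E3A against WT/WT ranged from -1.10 to -0.90 with 13 libraries and from -1.10 to -0.91 with 9. With 13 libraries, E3A/E3A against WT/WT had 1 member called instead of 0 under DESeq2, quality weights and the outlier note as a covariate. Of all 14387 genes, these settings called 24, 73 and 8. Fbp2 was selected on this contrast, so nothing is read from that count of members. The number of members called became 1 in E3A/E3A against WT/E3A with 13 libraries under quality weights, which called 17 of all 14387 genes. It became 1 in both single-allele steps with 9 libraries under DESeq2. There DESeq2 called 19 of 14373 genes in WT/E3A against WT/WT and 38 in E3A/E3A against WT/E3A. In the single-allele steps the gene was Fbp2: E3A/E3A against WT/E3A was -0.54 (adjusted p = 0.0241, limma quality weights, 13 libraries), and under DESeq2 with 9 libraries it was -0.57 (adjusted p = 0.000528) and WT/E3A against WT/WT -0.45 (adjusted p = 0.0338). These p-values are not independent of the selection of Fbp2. With the title prefix as a block, log2 fold changes of the opposite sign to those reported (number of libraries in brackets) were Pfkm -0.12, Pfkfb3 0.14 in E3A/E3A against WT/WT (13), Pfkp 0.063, Pfkfb1 0.022, Pfkfb2 -0.027, Pfkfb3 0.15 in WT/E3A against WT/WT (13), Pfkm -0.21, Pfkp -0.047 in E3A/E3A against WT/E3A (13), Pfkp -0.019, Pfkfb4 0.036 in E3A/E3A against WT/WT (9), Pfkm 0.04, Pfkfb1 0.051, Pfkfb2 -0.16 in WT/E3A against WT/WT (9). With the outlier note as a covariate, those of opposite sign were Pfkm -0.07, Pfkfb3 0.053 in E3A/E3A against WT/WT (13), Pfkm -0.082, Pfkfb3 0.069 in E3A/E3A against WT/E3A (13). With limma-voom with quality weights, those of opposite sign were Pfkl 0.057 in E3A/E3A against WT/WT (13), Pfkm -0.0001, Pfkp 0.017, Pfkfb3 0.066 in WT/E3A against WT/WT (13), Pfkl 0.025 in E3A/E3A against WT/E3A (13), Fbp1 0.028 in E3A/E3A against WT/WT (9), Fbp1 0.83, Pfkm 0.004, Pfkp 0.017 in WT/E3A against WT/WT (9), Pfkp -0.0003 in E3A/E3A against WT/E3A (9). With no low-count filter, those of opposite sign were Pfkl -0.007 in WT/E3A against WT/WT (13). With DESeq2 size factors in edgeR, those of opposite sign were Pfkm -0.003 in E3A/E3A against WT/E3A (13), Pfkm 0.002 in WT/E3A against WT/WT (9). With DESeq2, those of opposite sign were Pfkm -0.003 in E3A/E3A against WT/E3A (13), Pfkm 0.002 in WT/E3A against WT/WT (9). With limma-voom, those of opposite sign were Pfkfb3 0.017 in E3A/E3A against WT/E3A (13), Fbp1 0.26 in WT/E3A against WT/WT (9). With scaling by total counts the phosphofructokinase sum differed by -7.26 CPM per kb (13 libraries) and -7.59 CPM per kb (9 libraries) in WT/E3A against WT/WT. With each library left out in turn, log2 fold changes in E3A/E3A against WT/E3A (13 libraries) ranged Pfkfb2 -0.074 to 0.15, Pfkfb3 -0.17 to 0.10, Pfkl -0.25 to 0.31, Pfkm -0.12 to 0.30. With each library left out in turn, log2 fold changes in E3A/E3A against WT/E3A (9 libraries) ranged Pfkfb2 -0.13 to 0.21, Pfkl -0.11 to 0.05, Pfkm -0.035 to 0.052, Pfkp -0.026 to 0.051. With each library left out in turn, log2 fold changes in E3A/E3A against WT/WT (13 libraries) ranged Pfkfb3 -0.12 to 0.059, Pfkfb4 -0.094 to 0.067, Pfkl -0.24 to 0.34, Pfkm -0.10 to 0.30. With each library left out in turn, log2 fold changes in E3A/E3A against WT/WT (9 libraries) ranged Pfkfb3 -0.20 to 0.006, Pfkfb4 -0.063 to 0.061, Pfkl -0.057 to 0.065, Pfkm -0.004 to 0.026, Pfkp -0.029 to 0.044. With each library left out in turn, log2 fold changes in WT/E3A against WT/WT (13 libraries) ranged Pfkfb1 -0.25 to 0.14, Pfkfb3 -0.12 to 0.15, Pfkl -0.38 to 0.42, Pfkm -0.27 to 0.29, Pfkp -0.11 to 0.10. With each library left out in turn, log2 fold changes in WT/E3A against WT/WT (9 libraries) ranged Pfkfb1 -0.11 to 0.054, Pfkfb3 -0.015 to 0.10, Pfkl -0.04 to 0.12, Pfkm -0.038 to 0.049, Pfkp -0.035 to 0.017. Likewise the difference of the phosphofructokinase sum (CPM per kb) ranged -56.5 to 124 in E3A/E3A against WT/E3A (13), -16.9 to 19.3 in E3A/E3A against WT/E3A (9), -49.4 to 125 in E3A/E3A against WT/WT (13), -1.69 to 10.6 in E3A/E3A against WT/WT (9), -116 to 124 in WT/E3A against WT/WT (13), -14.2 to 22 in WT/E3A against WT/WT (9). Likewise the difference of the PFKFB sum (CPM per kb) ranged -4.78 to 4.65 in E3A/E3A against WT/E3A (13), -6.57 to 6.59 in E3A/E3A against WT/E3A (9), -0.32 to 10.1 in WT/E3A against WT/WT (13). Likewise the difference of the Pfkfb2 share (percentage points) ranged -0.024 to 4.3 in E3A/E3A against WT/E3A (9). Likewise the difference of the Pfkm share (percentage points) ranged -0.061 to 0.47 in E3A/E3A against WT/E3A (9), -0.098 to 0.41 in E3A/E3A against WT/WT (13), -0.26 to 0.28 in E3A/E3A against WT/WT (9), -0.36 to 0.18 in WT/E3A against WT/WT (13), -0.31 to 0.000584 in WT/E3A against WT/WT (9). Log2 Fbp2 over phosphofructokinase in E3A/E3A against WT/E3A ranged -0.71 to -0.43, and its p of 0.0476 rose above 0.05 without any 1 library except WT/E3A replicate 1. No paired analysis was possible because replicate numbers were given in accession order. With the title prefix as a block, WT/WT replicates 3 and 4 carry no information on genotype. Depth limits Fbp1, with 2 to 41 reads.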
